A study of Caenorhabditis elegans with 2 samples.

Results

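Regions listed for a PQM-1 chromatin immunoprecipitation that carry a DAF-16 associated element, the 7-bp sequence TGATAAG, at their centre are described here. The pooled list by its description includes background, so a listed region is not necessarily a bound one. They were chosen by 2 criteria: a place among the 2000 strongest regions by the authors' signal in the pooled list, and an exact match to the element on either strand, lying wholly within 100 bp of the summit. This left 250 regions of 2000 (12.5%, exact 95% interval 11.1 to 14), out of 27694 regions in the whole pooled list. The other 1750 strong regions, without the element in that window, are set beside them. Intervals here and below are exact Clopper-Pearson intervals and cover counting error only.

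Chromatin came from whole late embryos of Caenorhabditis elegans hermaphrodites, collected 2 h after synchronization by egg bleaching. The strain was OP201, unc-119(tm4063) III with the integrated transgene wgIs201, which expresses PQM-1 with GFP and FLAG at its C-terminus, and antibody against GFP pulled down sonicated chromatin carrying it. All samples form 1 group with 2 biological replicates of this single line; the labels also name control libraries, which are not analysed here. No read counts accompany the regions, which leaves depth unknown, and because whole embryos were used a region cannot be assigned to a tissue from its signal.

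PQM-1 is a C2H2 zinc finger transcription factor of the insulin signalling pathway. In adult worms it is known to act in opposition to the FOXO factor DAF-16, and the DAF-16 associated element is enriched upstream of class II genes, those lowered when DAF-16 is active. The element contains the core that GATA factors recognise, and in the intestine the GATA factor ELT-2 binds closely related sites upstream of digestive and metabolic genes.

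The element is shown first at 7 single-site regions, to let the letters around it be compared: 5 of the strongest regions with 1 site, and those upstream of the intestinal genes elt-2 and spp-8. Sequences were read from the RefSeq WBcel235 genome, which is build ce11, and each is written 5′ to 3′ on the strand that reads TGATAAG, with the element in capitals. The sites are F16G10.6 at chrII:2378742-2378748 (minus strand), C01G10.7 at chrV:15085613-15085619 (minus), K02B2.6 at chrIV:5967277-5967283 (minus), ZK899.6 at chrX:9465782-9465788 (minus), Y119D3B.21 at chrIII:1214878-1214884 (minus), elt-2 at chrX:10480716-10480722 (plus) and spp-8 at chrIV:8481534-8481540 (plus). All lay between genes.
F16G10.6: gcgttgctgtTGATAAGggtatggctt
C01G10.7: ctcgccctatTGATAAGcggtcgtggc
K02B2.6: atcacgaaacTGATAAGgaagaccaaa
ZK899.6: cacaccgaatTGATAAGgggtgtgtat
Y119D3B.21: aagagtgaatTGATAAGatagcaaacg
elt-2: gggctgaaacTGATAAGaatagtcgac
spp-8: aggagcacacTGATAAGaggtgataaa

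Several copies within one window are shown next, because they let the spacing and direction of sites be read directly. These stretches are all on the plus strand of ce11, so a copy on the minus strand appears as CTTATCA; copies on both strands are in capitals. The first 4 come from the strongest regions with several sites: Y37A1A.2 at chrIV:13919310-13919389, clec-78 at chrIV:3988775-3988836, srz-62 at chrIV:3899968-3900128 and ltah-1.2 at chrIV:3611921-3611963. The next 5 lie upstream of intestinal genes: cpr-4 at chrV:6614461-6614610, hmit-1.1 at chrV:18516694-18516784, the shared upstream region of asp-12 and asp-6 at chrV:8269112-8269171, asp-1 at chrV:19051619-19051695 and cpr-3 at chrV:15298859-15298880. The last 3 were picked after their spacing was seen, as the closest pairs: ifd-2 at chrX:816117-816136, frm-2 at chrIII:5981650-5981670 and egl-4 at chrIV:1845381-1845401. The stretches of ltah-1.2, frm-2 and egl-4 lay in introns and the others between genes.
Y37A1A.2: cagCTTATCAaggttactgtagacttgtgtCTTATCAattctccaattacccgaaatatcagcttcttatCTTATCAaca
clec-78: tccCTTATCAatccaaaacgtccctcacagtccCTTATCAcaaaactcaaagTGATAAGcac
srz-62: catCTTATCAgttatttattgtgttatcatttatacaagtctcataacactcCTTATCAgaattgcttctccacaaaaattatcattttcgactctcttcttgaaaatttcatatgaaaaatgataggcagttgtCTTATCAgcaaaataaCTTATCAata
ltah-1.2: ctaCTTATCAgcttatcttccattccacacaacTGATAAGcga
cpr-4: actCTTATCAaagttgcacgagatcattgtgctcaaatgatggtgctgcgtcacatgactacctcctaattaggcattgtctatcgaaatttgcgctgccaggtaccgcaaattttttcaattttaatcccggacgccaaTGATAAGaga
hmit-1.1: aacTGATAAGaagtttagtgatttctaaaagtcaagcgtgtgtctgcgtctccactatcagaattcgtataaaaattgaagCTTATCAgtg
asp-12 and asp-6: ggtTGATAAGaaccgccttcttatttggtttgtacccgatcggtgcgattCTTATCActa
asp-1: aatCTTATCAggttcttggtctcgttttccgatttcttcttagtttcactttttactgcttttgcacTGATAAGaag
cpr-3: gagCTTATCAggCTTATCAaag
ifd-2: ctcCTTATCACTTATCAcgc
frm-2: tgtTGATAAGaTGATAAGcga
egl-4: cagTGATAAGgTGATAAGgaa

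The strongest region with the element lay 856 bp upstream of F16G10.6, at rank 12 of the pooled list (signal 275.8), rank 19 in replicate 1 and rank 9 in replicate 2. Another region with the element, at rank 264 and with 2 sites, lay nearest to the same gene and overlapped the first, so they are adjoining calls. The region of Y37A1A.2, 6340 bp upstream of that gene's start, held 3 sites and ranked 39 in the pooled list, 35 in replicate 1 and 55 in replicate 2. The region in the promoters of both C01G10.7 and ahsa-1, a relative of an HSP90 co-chaperone, had its only site exactly at the summit; it ranked 47, with ranks of 79 and 53 in replicates 1 and 2. These 3 regions stood in the first 100 of both replicates.

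Next in pooled signal came the regions upstream of clec-78, which encodes a C-type lectin-like protein, and srz-62, which encodes a chemoreceptor of the serpentine family. The region of clec-78 had 3 sites, a pooled signal of 150.8 and ranks of 152 and 102 in replicates 1 and 2. That of srz-62 had 4 sites and a pooled signal of 149.0, with signals of 65.4 in replicate 1 and 85.1 in replicate 2. K02B2.6 (pooled rank 120), ZK899.6 (125), C52E2.3 (139, with 4 sites), mekk-3 (150), Y119D3B.21 (155), nlt-1 (158, with 3 sites) and ltah-1.2 (164, with 2 sites) completed the 12 strongest. mekk-3 encodes a MAP kinase kinase kinase, nlt-1 a lipid transfer protein of the SCP2 type and ltah-1.2 a relative of leukotriene A4 hydrolase. The region of K02B2.6 also lay beside a small RNA gene. By the worse of its ranks in the replicates, B0507.3 (pooled rank 166, replicate ranks 195 and 205, 3 sites) and shpk-1, a sedoheptulose kinase (178, replicate ranks 242 and 194, 2 sites), entered the first 12 in place of mekk-3 and ltah-1.2.

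Regions with the element were spread over the whole range of strength. Their pooled signal ran up to 275.8 with a median of 68.6, against a median of 70.7 and a maximum of 756 for regions without it. In steps of 250 ranks the element was in 8.8%, 8.4%, 13.6%, 16%, 11.6%, 14%, 13.2% and 14% of regions, from the strongest step to the last. Further down the pooled list the share was 9.8% at ranks 2001 to 4000, 6.73% at ranks 4001 to 8000, 5.46% at ranks 8001 to 16000 and 4.42% beyond. The 2 strongest steps thus held the element less often than the 6 that followed, and the share fell below rank 2000. The pooled signal was part of the selection, so these values are given without a test.

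The reproducible list, which is the top of the pooled list cut by the authors, held 67 regions with the element (10.0%). The other 183 lay below it (13.7% of the regions from there to rank 2000), in a list that by its description includes background. The authors' q-value was 0.01 or lower for 147 of the 250 regions with the element and for 1094 of the 1750 without it, and at rank 2000 the q-value was 0.0338. Near the limit stood the regions of R10E11.5 (rank 1983, signal 55.14), arrd-7 (rank 1984, signal 55.14) and C35E7.4 (rank 1985, signal 55.14). Just beyond it were paqr-1 (rank 2007, signal 54.97), mth-1 (rank 2011, signal 54.91, 3 sites) and a further region near nlt-1 (rank 2027, signal 54.77). The region of arrd-7 ranked 28690 in replicate 1 and 1062 in replicate 2.

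As a background for these shares, the element was present in 3.47% of the 498866 consecutive windows of the same length along the genome and in 7.10% of windows lying just upstream of the 19973 protein-coding genes. Windows 500 bp to both sides of the 2000 summits held it in 3.8% of 4000 cases. The 250 regions contained 321 of the 18686 genomic copies (1.72%).

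Sites were denser around the summit than farther away. Over the 2000 summits there were 0.938 sites per kb within 20 bp, 0.613 at 80 to 100 bp and 0.208 at 400 to 500 bp, a ratio of 4.52 between the innermost and the outermost class. Within 60 bp the density had no single peak: the 20-bp steps next to the summit held 41 and 34 sites, the steps at 20 to 40 bp also 41 and 34, and the step at 40 to 60 bp on the higher-coordinate side 38. The closest site of a region lay at a median of 38 bp from the summit, within 20 bp in 71 regions and within 50 bp in 162 (64.8%). It stood at a lower coordinate than the summit in 126 regions, on the summit itself in 2, among them C01G10.7, and at a higher one in the rest. In 11 regions the closest site was centred 91 to 97 bp away, near the edge of the window, and in 27 of the regions counted as lacking the element a site was centred 98 to 117 bp away.

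**Figure D1:**
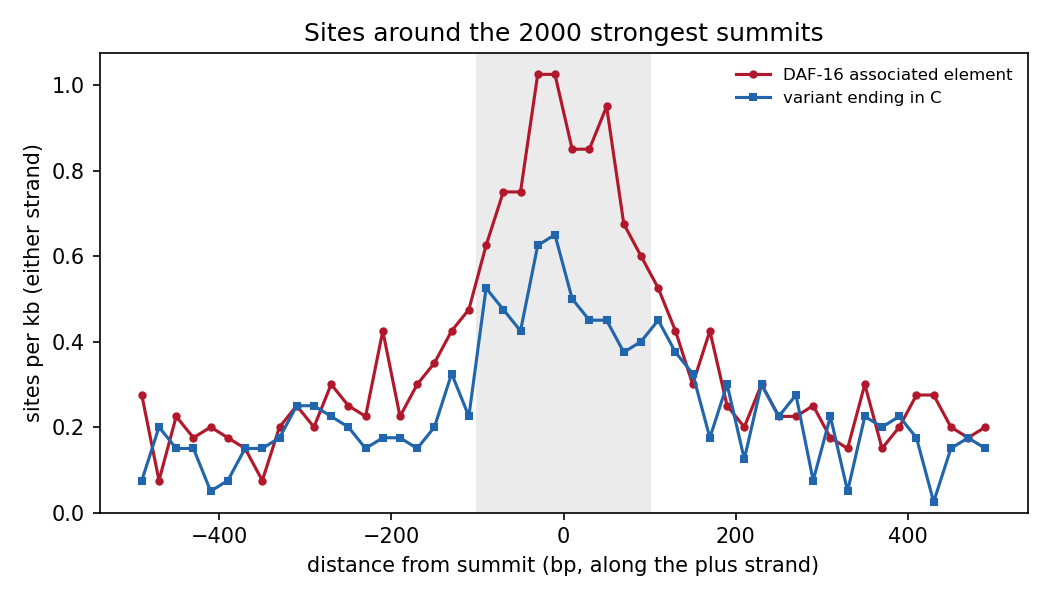
Sites per kb (vertical axis) of the DAF-16 associated element (circles) and of its variant ending in C (squares) in 20-bp steps from the summits of the 2000 strongest regions (horizontal axis, bp along the plus strand). The grey band is the window used to choose regions. Inside it the element averaged 0.938 per kb within 20 bp of the summit, against 0.208 per kb at 400 to 500 bp. Its highest steps, at 1.025 per kb, ran from -40 to 0 bp.

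One site was the commonest arrangement, in 196 regions, while 40 regions had 2 sites, 11 had 3 and 3 had 4, those of srz-62, C52E2.3 and, named after its values were seen, twk-33. Thus 54 regions held at least 2 (21.6%, 16.7 to 27.2). Between neighbouring sites of the same region the spacing from start to start was 7 to 163 bp with a median of 45 bp, and 40 of the 71 pairs were within 50 bp. The shortest spacing was in ifd-2, which encodes an intermediate filament protein of the intestine: its copies stood directly end to end, as its stretch above shows. In frm-2, a FERM domain protein, and in egl-4, the cGMP-dependent protein kinase, a single base separated them. Of the pairs, 45 had both sites on the same strand, 13 had a plus-strand site followed by a minus-strand site and 13 the converse. In the 5 stretches upstream of intestinal genes, cpr-3 had its pair on one strand, and the other 4 had opposed sites 47 to 137 bp apart.

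No preference for a strand passed the test. The site closest to the summit read along the plus strand in 130 of the 250 regions (52%, 45.6 to 58.3; two-sided exact binomial p = 0.57). Of the 136 regions in a promoter, 60 had the closest site reading in the direction of the nearest gene (44.1%, 35.6 to 52.9; exact binomial p = 0.198). In the 2000 strongest regions of replicate 1 alone that share was lower than 50%, by 13 percentage points (exact binomial p = 0.012), whereas replicate 2 alone gave a difference of -7.34 points (exact p = 0.094). Regions are not replicates, and these tests and those below speak of these regions only.

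The bases next to the element were unevenly used. A C stood just before TGATAAG in 40.5% of the 321 sites (35.1 to 46.1), against 27.7% of the 1041 sites at summits ranked below 8000 and 21.3% of the 18365 copies elsewhere in the genome. An A stood there in 12.1%, against 22.3% and 22.6%. Directly after the element T was the rarest base, at 5.92% of the 321 sites (3.60 to 9.09), against 14.7% of the sites in weak regions and 23.4% of other genomic copies, while G took 24.6% against 17.9% and 18.5%. The longer form with C before and A or G after made up 29.6% of the 321 sites, 19.8% of those in weak regions and 12.9% of the other copies. With AC before the element these shares were 17.4%, 12% and 6.33%. Of the single sites printed above, those of elt-2, K02B2.6 and spp-8 have this longest form. The single sites upstream of the intestinal genes let-413 and spp-5, not printed, lack it and have T before the element. These shares describe the sites that strength selected and were not tested.

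Single-base changes of the element showed how closely its letters were tied to the summits. Each of the 21 variants was counted in the 2000 summit windows and in a window 500 bp to one side, and compared by exact two-sided McNemar tests, adjusted over the 21 by the Benjamini-Hochberg method. The element itself, which chose the regions, was in 12.5% of summit windows and 3.8% of flanks. TGATAAC, which differs in the last base, was in 8.25% of summit windows against 2.45% of flanks (exact adjusted p = 7.3e-15) and in 3.01% of genome windows. AGATAAG was at 3.20% against 1.65% (exact adjusted p = 0.011) and CGATAAG at 2.60% against 1.15% (exact adjusted p = 0.0076), both with another first base. TGAAAAG was less frequent at summits, at 5.50% against 8.55% (exact adjusted p = 0.0023). The other 17 variants did not pass, among them TGATAAA (7.80% against 7.55%, exact adjusted p = 0.95) and TGATAAT (5.50% against 6.90%, exact adjusted p = 0.15), which share the last position with TGATAAC. The variant TGATAAC passed in all 12 other settings tried, while the calls of the other 3 were each lost in at least 5 of them. One setting kept only regions with GC content within the quartiles of the regions with the element. There the difference was 0.0 points for TGAAAAG, 1.153 for CGATAAG and 2.965 for AGATAAG, and of these only AGATAAG passed.

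**Figure D2:**
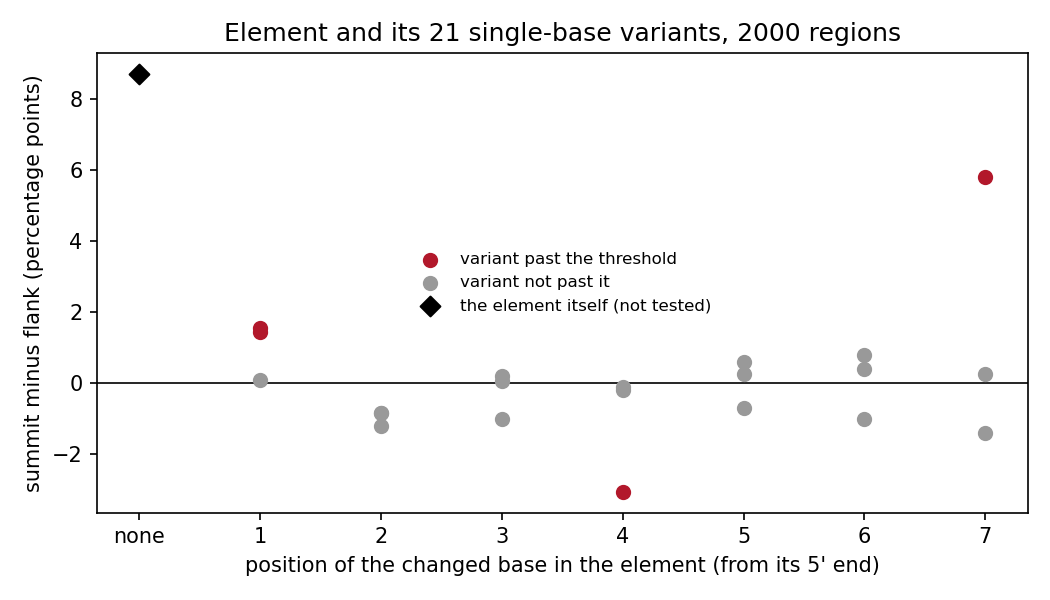
Share of the 2000 summit windows minus share of flanks 500 bp away (vertical axis, percentage points) for the element (diamond, not tested) and its 21 single-base variants (points, grouped by the changed position counted from the 5′ end on the horizontal axis). Red points passed the exact McNemar test after adjustment; the highest of them, at position 7, is the variant ending in C (8.25% against 2.45%).

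TGATAAC also accompanied the element. It was in 59 of the 250 regions with the element (23.6%, 18.5 to 29.4) and in 106 of the 1750 without it (6.06%, 4.99 to 7.28), against 3.60% and 2.69% of their own flanking windows at 500 bp. This variant had a profile like that of the element, with 0.575 sites per kb within 20 bp of the summit, 0.463 at 80 to 100 bp and 0.130 at 400 to 500 bp. Together TGATAAG or TGATAAC was present in 356 of the 2000 regions (17.8%). The 4 variant sites below show its setting in strong regions that lack the element, each on the strand that reads TGATAAC, with the variant in capitals: str-56 at chrV:15873874-15873880 (minus strand), chst-1 at chrII:8107218-8107224 (minus), R12C12.9 at chrII:6026879-6026885 (minus) and fbxc-29 at chrII:915465-915471 (minus). The region of str-56, a chemoreceptor gene, ranked 7 in the pooled list, 6 in replicate 1 and 12 in replicate 2, and that of fbxc-29, an F-box gene, with replicate ranks of 211 and 249, held 5 copies of the variant. These genes were chosen after their values were seen.
str-56: acactcttgaTGATAACatacccattt
chst-1: ccatccctggTGATAACacggttttcc
R12C12.9: aattattggcTGATAACaacgaggaaa
fbxc-29: tgttgatagcTGATAACacgatcaatt

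Other GATA sites were the pattern that most separated the regions with the element from those without it. The general GATA site WGATAR (W is A or T, R is A or G, either strand) was read away from the element, by masking each TGATAAG first. It was present in 68.0% of the 250 regions with the element (61.8 to 73.7) and in 32.9% of the 1750 without it (30.7 to 35.1), an odds ratio of 4.34 (two-sided Fisher's exact test, exact adjusted p = 3.9e-25 over 7 patterns). Flanking windows at 500 bp held it in 35.6% and 34% of cases, and genome windows, read without masking the element, in 35.7%. The share in regions without the element was near these values, but base composition was not matched in this comparison. At least 2 further GATA sites were in 30.4% of regions with the element and in 9.83% of those without it. A copy of TGATAAC counts as a GATA site, and with TGATAAC masked as well the shares were 58.4% and 30.4% (exact adjusted p = 1.8e-16).

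Base composition differed between the same regions: the median GC content of the summit window was 39.1% (quartiles 35.6 and 43.7) with the element and 46.3% (40.3 and 51.2) without it. Among the 607 regions within the quartiles of the regions with the element, a setting chosen after seeing the data, WGATAR was at 71.0% of 124 regions with the element and 40.4% of 483 without it (exact adjusted p = 1.0e-08).

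For the other 6 patterns differences were smaller. The SKN-1 core WWTRTCAT, bound by the factor of the oxidative stress response, was in 15.2% of regions with the element and 7.43% of those without it (exact adjusted p = 0.00044). Of its 174 matches 83 overlapped WGATAR, and matches free of it were in 5.6% and 4.34% (exact adjusted p = 0.47). In the range of like GC content its shares were 14.5% and 12.4% (exact adjusted p = 0.73). The GA repeat GAGAGAGA was in 7.2% and 13% (exact adjusted p = 0.028), a call lost in 6 of the other settings, including like GC content (6.45% and 8.49%, exact adjusted p = 0.73). The FOXO site GTAAACA, to which DAF-16 itself binds, was in 4.00% and 2.97% (exact adjusted p = 0.47). With 200 bp to each side of the summit its difference passed, at 4.019 points (Fisher's exact test, exact adjusted p = 0.013). It was -0.7456 points in the 1000 strongest regions and -0.7079 at like GC content. The E-box CACGTG was in 9.60% and 6.23% (exact adjusted p = 0.098), TTCNNGAA, the heat shock element, in 9.60% and 8.34% (exact adjusted p = 0.47) and the T run TTTTTTT in 23.6% and 21% (exact adjusted p = 0.47). Genome windows held WWTRTCAT in 9.98%, GAGAGAGA in 1.32%, GTAAACA in 2.27%, CACGTG in 3.33%, TTCNNGAA in 13.9% and TTTTTTT in 37.2% of cases. A match to any of these letters is a description, not a bound site.

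Regions with the element were seldom beside small RNA genes or in promoters shared by several genes, while their share in promoters did not differ past the threshold. A promoter, defined as 1000 bp before and 200 bp after the start of any transcript of a protein-coding gene, held 136 summits with the element (54.4%) and 970 without it (55.4%; Fisher's exact test, exact adjusted p = 0.86 over 6 features). Small RNA genes (tRNA, rRNA, snRNA and snoRNA, each extended by 200 bp) included the summit in 4 of 250 regions with the element (1.60%, 0.438 to 4.05) and 240 of 1750 without it (13.7%, 12.1 to 15.4), an odds ratio of 0.102 (exact adjusted p = 9.9e-10). Those 4 regions, named after their values were seen, were nearest to K02B2.6 (rank 120), the aquaporin gene aqp-9 (772) and T28F2.1 (1370), and a locus at rank 986. A summit in the promoters of several genes at once occurred in 15 regions with the element (6%, 3.40 to 9.70) and 300 without it (17.1%, 15.4 to 19), an odds ratio of 0.309 (exact adjusted p = 3.1e-06); C01G10.7 with ahsa-1, nlt-1 with ZK892.3 and asp-12 with asp-6 were of this kind.

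Both of these differences remained at like GC content, at 0.807% and 8.28% beside small RNA genes (exact adjusted p = 0.0033) and at 5.65% and 26.3% in promoters of several genes (exact adjusted p = 5.5e-07). In the 2000 strongest regions of replicate 1 alone neither passed (exact adjusted p = 0.057 for each), with differences of -5.56 and -6.23 percentage points. The share of introns outside promoters was 16.8% with the element and 17.4% without it (exact adjusted p = 0.86), that of intergenic sequence outside promoters 23.6% and 20.9% (exact adjusted p = 0.48) and that of the X chromosome 16.8% and 20.2% (exact adjusted p = 0.47). Chromosome V held 25.2% of the regions with the element and 15.9% of those without it, beside 25% of protein-coding genes; this was not tested.

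**Figure D3:**
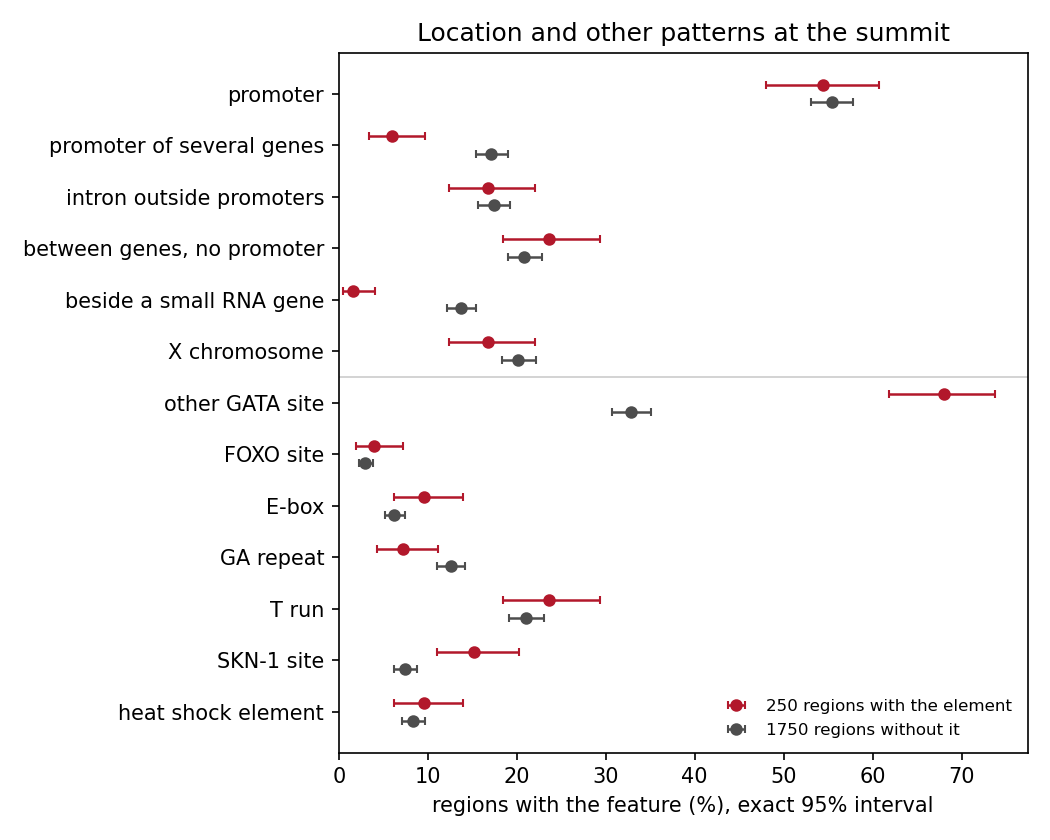
Percentage of regions with each location (above the line) or other sequence pattern (below it), for the 250 regions with the element (red, upper point of each pair) and the 1750 without it (grey); bars are exact 95% intervals. Other GATA sites stand at 68.0% against 32.9%, while small RNA genes stand at 1.60% against 13.7%.

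By annotation 150 summits with the element were intergenic and 63 intronic, 14 were in coding exons, 18 in 5' UTRs and 5 in 3' UTRs. Summits in promoters lay at a median of 173 bp from the nearest transcript start (quartiles 96 and 439) with the element and 211 bp (113 and 398) without it. They were upstream of the start in 88.2% and 91.1% of cases, in a window that itself is mostly upstream.

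The promoters of 149 of 19973 protein-coding genes (0.746%) held a summit of a region with the element, and those of 1234 (6.18%) one without it. Of the 149 genes, 6 also had a region lacking the element in the promoter, beside 6.18% of all protein-coding genes, and 143 had none. Most genes have no such region, so this count does not set the 149 apart. Of the 149, 96 have a gene symbol, such as cpr-4, rather than only a sequence name. Each of the 28 gene lists below is read against these background percentages, without a test, since the lists were chosen with earlier results of these data known. Genes sharing a region, such as asp-12 and asp-6, are not independent.

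Among tissue markers, intestinal genes had the highest count. Of 57 intestine markers 9 had a region with the element in the promoter (15.8%) and 4 a region without it (7.02%). The 9 were cpr-4, elt-2, hmit-1.1, asp-6, let-413, asp-1, spp-5, cpr-3 and spp-8, and the 4 were act-5, aqp-4, ifc-2 and mtl-1. The background of 0.746% comes to less than 1 gene in each of these lists, so a count of 0 in a short list does not set it apart from all genes. Markers of 5 other tissues had none with the element: 0 of 38 for epidermis, 0 of 28 for body wall muscle, 0 of 40 for neurons, 0 of 40 for germline and 0 of 21 for the excretory system and coelomocytes, although regions without it were upstream of 2, 3, 1, 2 and 3 of them. Of 25 pharynx markers only pha-4, the FoxA factor that specifies the pharynx, had one (rank 1172).

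The region of cpr-4, a cathepsin B-like protease, was the strongest of the intestinal group (signal 117.2, rank 245), upstream of the start and with 2 sites. It ranked 649 in replicate 1 and 177 in replicate 2. elt-2, the GATA factor that directs intestinal differentiation, had its region 593 bp upstream (signal 82.84, rank 652) with replicate ranks of 486 and 1171. The region of hmit-1.1, a myo-inositol transporter, lay 88 bp upstream with a site 1 bp from the summit (signal 82.64, rank 656) and had replicate ranks of 523 and 1205. asp-6 and asp-12, both aspartyl proteases, shared a region 190 bp and 83 bp upstream of their starts (signal 82.47, rank 659) with replicate ranks of 1406 and 636. None of these 4 regions stood in the first 100 of either replicate.

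The remaining markers, named because all 9 are accounted for, were weaker. let-413, the Scribble protein of epithelial polarity, had rank 664, with replicate ranks of 1009 and 513. asp-1 had rank 677 with replicate ranks of 1931 and 547, and the region was 884 bp upstream of its start. spp-5, a saposin-like antimicrobial protein, had rank 1060 with replicate ranks of 3946 and 639. cpr-3 had rank 1699 with replicate ranks of 2721 and 2869, and spp-8 rank 1845 with replicate ranks of 4434 and 1833. Of these 5 regions, 3 were ranked beyond 2000 in replicate 1 and 1 in replicate 2.

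Digestive enzymes formed the list with the highest share. Of 28 aspartyl and cysteine proteases 5 had a region with the element (17.9%), cpr-4, asp-12, asp-6, asp-1 and cpr-3, and 1 had a region without it, cpr-9; 4 of the 5 are also intestine markers. Of 47 lysozymes and saposins 2 had one, spp-5 and spp-8, against 1 without it. Of 49 ABC transporters 3 had one: mrp-5, which exports haem from the intestine (rank 600), haf-4, of intestinal granules (rank 1161), and pgp-6 (rank 1438), and 3 had a region without it. Of 127 genes of fatty acid families lbp-3, a fatty acid binding protein (rank 407), and acs-4, an acyl-CoA synthetase (rank 1584, 2 sites), had one.

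Receptor and other large families had small counts, with shares on either side of the 0.746% over all protein-coding genes. Of 237 C-type lectins 4 had a region with the element, clec-78, clec-86, clec-72 and clec-150, and 4 one without it (1.69% each). Of 269 nuclear hormone receptors 4 (1.49%) had one, nhr-291 (rank 405, 2 sites), nhr-119, nhr-69 and nhr-88, against 22 without it. The 1353 chemoreceptor genes had 4, srz-62, srlf-7, srv-1 and str-39 (0.296%), against 10 without it. The 388 F-box and MATH-BATH genes had 2, fbxc-19 and fbxa-99 (0.515%), against 8 without it. The 188 detoxification genes had 1, gst-42, a glutathione transferase (0.532%), against 5 without it.

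Of 25 insulin and FOXO signalling genes sgk-1, a kinase acting with AKT, had a region with the element (4%; rank 1810, 27 bp upstream), and 4 had one without it. Of 27 class II genes asp-12 had one (3.7%), and of 22 class I genes, those raised by FOXO, 0 did. elt-2 was the only one of 11 GATA factors. In the pooled list pqm-1 itself had no region in its promoter at any rank. The best-ranked region of daf-16 stood at 3372 (signal 45.92) and that of elt-7, a GATA factor partly redundant with elt-2, at 3579 (signal 45.10), both without the element.

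In housekeeping families all regions found in promoters lacked the element, but with these list sizes a count of 0 is near the share over all genes. Of 81 cytosolic ribosomal protein genes 0 had a region with it and 29 one without it (35.8%). For heat shock proteins and chaperonins the counts were 0 and 18 of 57, for histones 0 and 8 of 50, and for vacuolar ATPase subunits 0 and 5 of 21. Collagens (0 and 5 of 171), homeobox ceh genes (0 and 4 of 63), insulin-like peptides (0 and 1 of 38) and yolk proteins (0 and 0 of 6) also had none with it. In all, 14 of the 28 lists had no gene with the element.

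**Figure D4:**
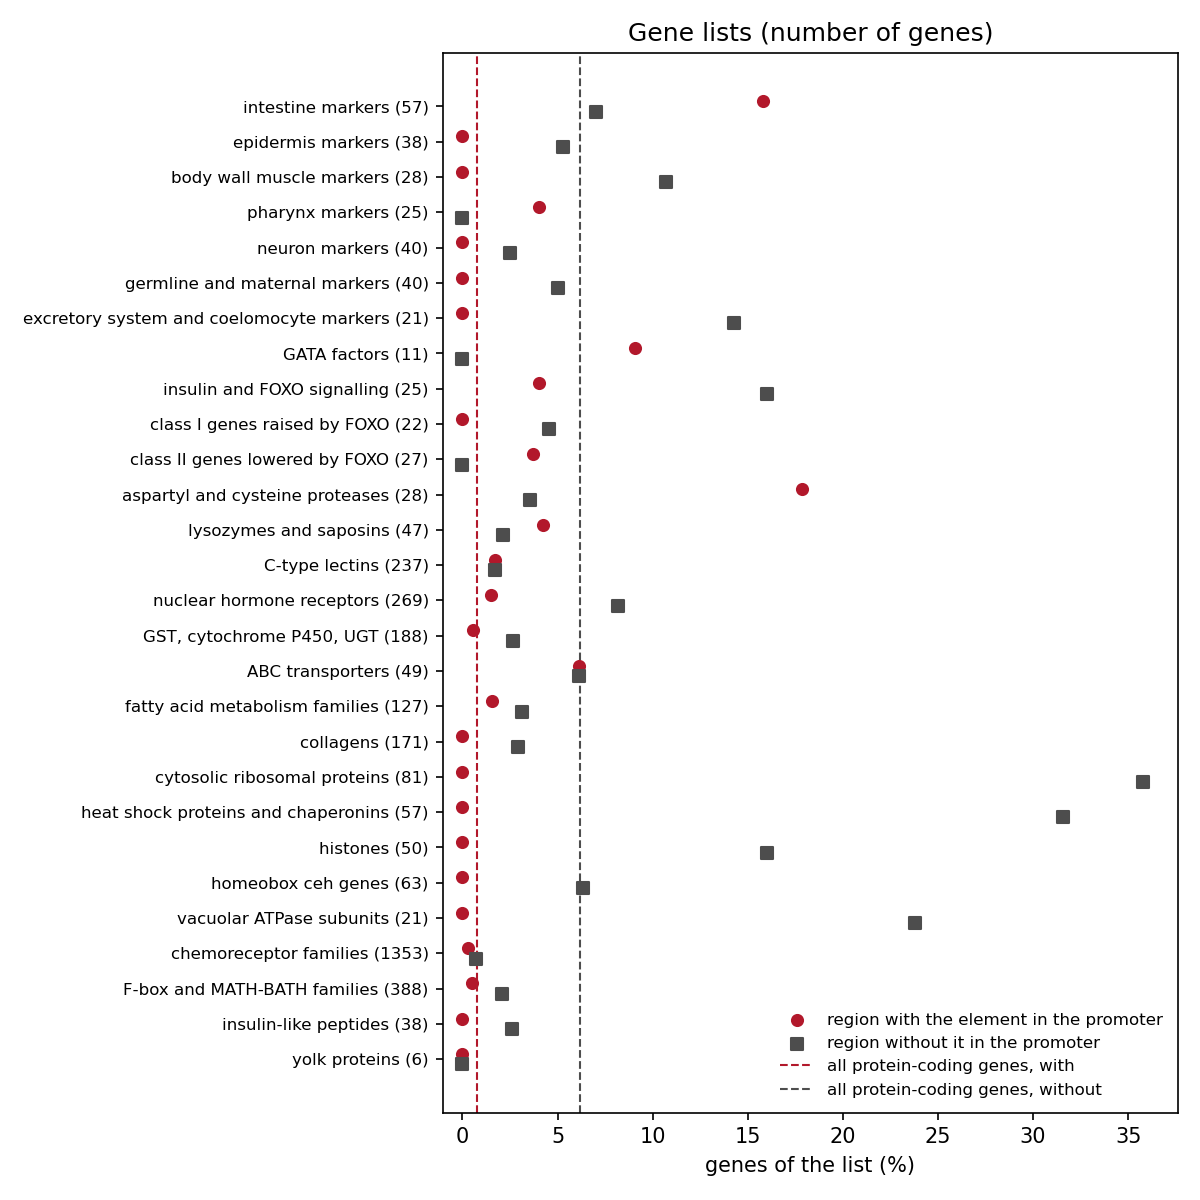
Percentage of the genes of each list (number of genes in brackets) with a region in the promoter that has the element (red circles) or lacks it (grey squares); dashed lines are the percentages over all protein-coding genes, 0.746% and 6.18%. Proteases (17.9%) and intestine markers (15.8%) lie farthest to the right among the circles, ribosomal proteins (35.8%) among the squares.

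The replicates did not rank these regions alike. In replicate 1 the median rank was 1464 (quartiles 737 and 3318) with the element and 1026 (437 and 2339) without it, while in replicate 2 it was 993 (570 and 1782) with the element and 1025 (463 and 1797) without it. A summit fell inside one of replicate 1's 2000 strongest regions for 147 regions with the element (58.8%, 52.4 to 65.0) and for 69.9% of those without it (67.7 to 72.0). For replicate 2 the figures were 198 regions (79.2%, 73.6 to 84.1) and 78.6% (76.6 to 80.5). Both replicates held 116 of the regions with the element (46.4%, 40.1 to 52.8) and 921 of those without it (52.6%, 50.3 to 55.0), beside 51.9% of all 2000. A further 31 regions with the element were in replicate 1 only, 82 in replicate 2 only and 21 in neither. The pooled signal that chose the regions contains both replicates, so these shares carry no test.

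The rank was better in replicate 2 than in replicate 1 for 160 of the 248 regions with the element that both lists contain (64.5%) and for 907 of 1725 without it (52.6%). Rank in one replicate followed rank in the other loosely, with a Spearman coefficient of 0.255 over the 248 regions with the element and 0.399 over the 1725 without it, a description across regions that share both libraries and were selected on their sum. Regions with at least 2 sites stood in both replicates in 31 of 54 cases (57.4%, 43.2 to 70.8) and regions with 1 site in 85 of 196 (43.4%, 36.3 to 50.6).

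The same imbalance was seen from the replicates' own lists. Of replicate 1's 2000 strongest regions 9.45% held the element at the summit (8.20 to 10.8), and of replicate 2's 12.9% (11.5 to 14.4). Among the 2000 pooled regions the element was in 11.2% of those strong in both replicates, 9.31% of those strong in replicate 1 only, 15.3% of those strong in replicate 2 only and 22.3% of the 94 strong in neither (14.4 to 32.1). Of the genes described above, F16G10.6, clec-78, srz-62 and cpr-4 were strong in both, whereas spp-5 and arrd-7 were strong in replicate 2 only.

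**Figure D5:**
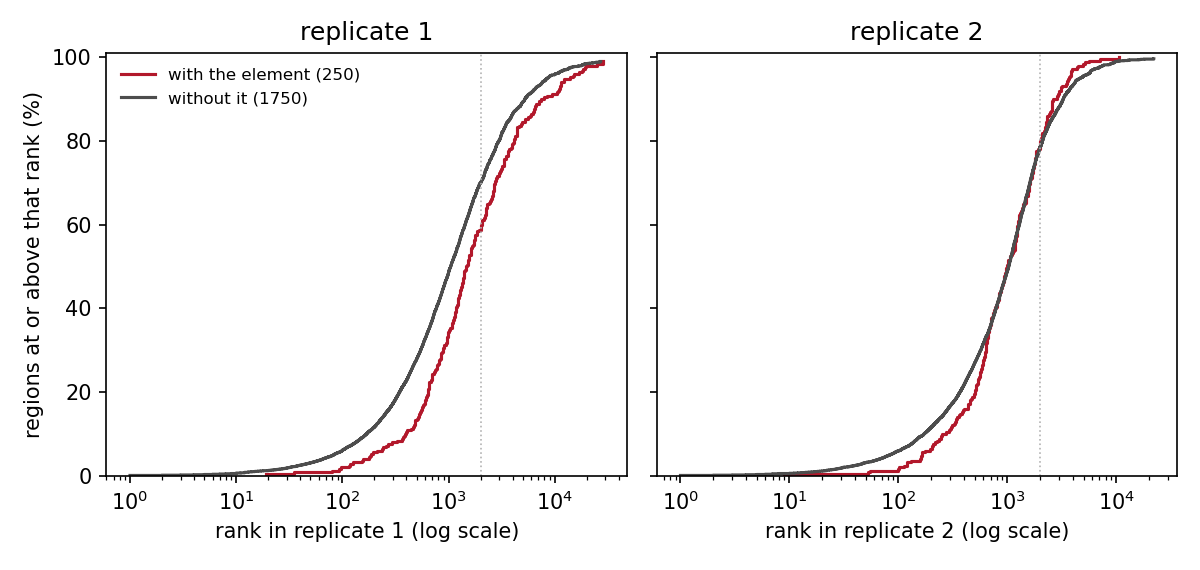
Cumulative percentage of regions (vertical axis) at or above each rank (horizontal axis, log scale) in replicate 1 (left) and replicate 2 (right), for the 250 regions with the element (red) and the 1750 without it (grey); the dotted line marks rank 2000. At that line the curves stand at 58.8% and 69.9% in replicate 1 and at 79.2% and 78.6% in replicate 2.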

How the data were processed

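The authors deposited peak lists of each replicate, of both pooled and of the reproducible set, per the deposited README text; aligner, peak caller and versions were not given in the sources used here. The deposited signal of a region is the authors' peak value, not scaled between lists, and the deposited −log10 q-value is their false discovery rate. Lists in build ce11 were used; those in ce10 were not used here. The lists carry no read counts, so depth is unknown.

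Summits came from the authors' offsets. Windows reaching 100 bp to each side were read from the RefSeq WBcel235 genome, which is ce11, and genes from Ensembl release 115. TGATAAG and other patterns were matched exactly on both strands. Location and patterns were compared by two-sided Fisher's exact tests, and variants by exact McNemar tests against a flank at 500 bp on a side drawn with a fixed seed. Benjamini-Hochberg adjustment was made within each of these families. Strand was compared by exact binomial tests without adjustment. The threshold was 0.05 throughout. A replicate held a region if the pooled summit lay inside one of its regions. Alternatives changed the window, the regions used, the promoter, the flank and the overlap, and left out each replicate; restrictions by GC content and by overlap with GATA sites were chosen after seeing the data.

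Named genes were those nearest the 12 strongest regions, the 12 with the best worse replicate rank and the 8 strongest with 2 or more sites, up to 4 per list, pqm-1, daf-16, elt-2 and elt-7, and 3 on each side of the rank limit; others are said to be chosen later. The regions and lists were chosen with earlier results of these data known. Of 3515 listed symbols 3507 matched a protein-coding gene. Software was scipy 1.17.1, numpy 2.4.6, pandas 2.3.3 and matplotlib 3.10.9 under Python 3.11.15. Tested on 20 simulated sets, they called a planted feature and a planted variant in 20 each, with 0 false calls in 120 feature tests and 420 variant tests. Simulated regions lay at random positions and features were drawn independently. Such sets therefore cannot show how differences in base composition affect the calls.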

Additional observations from a re-analysis of the deposited data

How the results depend on the processing

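Of 263 values recomputed under other settings, 187 kept their direction and their side of the threshold or stayed near the main value, and 20 changed direction, all of results that did not pass the threshold in either setting. These were the difference for the X chromosome (0.7959 points in the reproducible list, 3.576 at like GC content), for introns (0.1977 in windows of 50 bp, 0.3783 without replicate 1, beside -4.852 without replicate 2, 2.967 without regions beside small RNA genes, 3.521 at like GC content) and for promoters (0.2306 in the reproducible list, 2.606 without replicate 2, 0.1451 without replicate 1, 0.1714 with promoters of 2000 bp). Further ones were GTAAACA (-0.7456 in the 1000 strongest regions, -0.7079 at like GC content), TTCNNGAA (-1.411 in windows of 50 bp, -0.02883 in the 1000 strongest regions, -1.239 without replicate 2, beside 0.2465 without replicate 1, -1.895 at like GC content), TTTTTTT (-1.859 in the reproducible list, -9.674 at like GC content) and the plus strand (-0.6494 in windows of 50 bp, -0.7463 in the reproducible list). The share of regions with the element was 7.70% in windows of 50 bp, 17.35% in windows of 200 bp and 10.01% in the reproducible list, and 9.45% to 12.9% when 1 replicate was left out. Leaving out replicate 2 ended both location calls (difference -5.555 points beside small RNA genes, -6.231 points in promoters of several genes, 0 features called), while without replicate 1 the differences were -11.81 and -8.623 points; without regions beside small RNA genes 1 location feature was called. With 1 replicate left out the strand share along the nearest gene differed from 50% by -13 to -7.343 points, the lower value past the threshold without adjustment. That value was among 5 that passed the threshold only under another setting. The rest were the X chromosome in windows of 50 bp (-8.734 points) and TTTTTTT without replicate 2 (8.132 points). In windows of 200 bp they were intergenic sequence outside promoters (6.428 points) and GTAAACA (4.019 points). GAGAGAGA missed the threshold in windows of 50 bp (difference -0.9272 points) and 200 bp (-4.273), in the reproducible list (-5.162), in the 1000 strongest regions (-5.465) and at like GC content (-2.037), and gave -5.107 to -4.814 points with 1 replicate left out, missing it without replicate 2. WWTRTCAT missed it at like GC content (2.094 points) and away from WGATAR (1.257 points); at like GC content 1 pattern was called. The number of variants called was 1 in the reproducible list and with a flank at 1000 bp, and 2 with the other side at 500 bp and in regions without the element; of these, 1 was more frequent at summits in each case, as also without replicate 2. Presence in both replicates was 23.2% with and 31.31% without the element for the 1000 strongest regions of each replicate, 91.04% and 96.84% for the reproducible list, and 49.27% without the element once regions beside small RNA genes were left out. In the reproducible list 46 genes, 5 intestine markers and 3 proteases had the element in the promoter. The causes of these changes were not tested. No paired analysis was possible because the study has 1 group. Depth is unknown, so nothing can be said of what it limits, and 1 transgenic line in 2 replicates stands behind every value.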
